A study of Mus musculus with 6 samples.

Results

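Among 4 lines of mouse induced pluripotent stem cells (iPSC), fibroblasts turned back into a state like that of embryonic stem cells, lines 7 and 13 were set against lines 3 and 5. The 4 lines were 4 of the 6 libraries of an RNA sequencing study. Lines 7 and 13 were put together because they were the closest of the 6 possible pairs of lines and because both ran high in genes of the 2-cell-like state. The labels group the lines otherwise. Lines 3 and 7 are normal iPSC, called control here, and lines 5 and 13 are labelled as palmitoylcarnitine (PC) iPSC, so each pair held 1 control and 1 PC line. Palmitoylcarnitine is the form in which the fatty acid palmitate is carried into mitochondria. Because the pairs were chosen on these very values, the differences between them are given line by line as a description, with no test. Levels are RPKM, read counts scaled to gene length and library size.

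The other 2 libraries were 1 of embryonic stem cells (ESC), titled B6, and 1 of mouse embryonic fibroblasts (MEF). ESC and all iPSC lines were grown with leukemia inhibitory factor on MEF feeder cells stopped with mitomycin C, and the MEF sample in serum medium. The sources used here do not give the strain, how the cells were reprogrammed, the palmitoylcarnitine dose and its timing, or whether a line is 1 clone. Nothing in the labels says that the lines came from separate animals or cultures, so p-values below measure only the spread between these samples. Libraries held 26.51 M to 27.99 M assigned reads, and 16326 to 17463 genes had a read. Of 19330 genes in the table, 14553 had at least 20 reads in some iPSC line and are called measured. The 4 lines carried the pluripotency genes Pou5f1 (401 to 531), Nanog (388 to 473) and Zfp42 (143 to 171). The MEF library went against its label in part. It held Pou5f1 at 157.7, Sox2 at 88.2, Klf4 at 124 and Myc at 154, with Nanog at 0.0482. Values from it are used below only as levels.

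Cells resembling the 2-cell embryo come and go as a small fraction of ESC and iPSC cultures. In such cells the homeobox factor Dux and its targets are known to be switched on, among them the Zscan4 zinc finger genes, Zfp352, the Tdpoz genes and transcripts that start in the retroviral element MERVL. Most of these genes lie in tandem arrays of near-identical copies. Reads were assigned uniquely, so the split of reads between copies is uncertain, and sums over chosen copies of each family are given beside the single genes. Whole cultures were sequenced, so more cells in such a state and more RNA per cell cannot be told apart.

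The stretches of DNA just before 4 of these genes are shown. In each of these genes both lines 7 and 13 lay above both lines 3 and 5. The nearest lines were from 1.41-fold apart, in Zscan4c, to 2.13-fold, in Zfp352. Each is the 250 bases before the RefSeq start (build GRCm38.p6), read along the gene's strand. They are Zfp352 (chr4:90218570-90218819, plus strand), Zscan4c (chr7:11005495-11005744, plus), Zscan4d (chr7:11166149-11166398, minus) and Usp17lc (chr7:103416446-103416695, plus). Capitals mark TAATCC in Zfp352. In the others capitals mark TATAAA, the core of the TATA box. Both were searched on both strands, and do not overlap each other.
Zfp352: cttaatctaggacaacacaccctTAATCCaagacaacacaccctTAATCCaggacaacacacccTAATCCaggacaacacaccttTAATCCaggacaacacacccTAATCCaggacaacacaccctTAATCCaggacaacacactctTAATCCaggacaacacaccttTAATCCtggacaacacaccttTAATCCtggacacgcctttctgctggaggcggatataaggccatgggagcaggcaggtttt
Zscan4c: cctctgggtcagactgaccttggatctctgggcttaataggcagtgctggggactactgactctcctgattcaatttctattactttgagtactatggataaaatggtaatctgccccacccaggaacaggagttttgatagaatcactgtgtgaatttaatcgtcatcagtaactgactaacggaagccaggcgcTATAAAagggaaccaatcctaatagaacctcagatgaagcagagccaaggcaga
Zscan4d: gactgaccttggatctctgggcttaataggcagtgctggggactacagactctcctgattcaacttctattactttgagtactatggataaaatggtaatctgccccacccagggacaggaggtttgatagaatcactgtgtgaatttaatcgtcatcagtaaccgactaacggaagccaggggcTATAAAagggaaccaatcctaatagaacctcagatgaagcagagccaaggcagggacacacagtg
Usp17lc: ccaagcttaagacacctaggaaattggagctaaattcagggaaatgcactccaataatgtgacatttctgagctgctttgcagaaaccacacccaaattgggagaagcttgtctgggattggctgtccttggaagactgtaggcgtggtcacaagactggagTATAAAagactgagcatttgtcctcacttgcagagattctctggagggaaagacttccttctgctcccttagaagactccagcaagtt

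The Zfp352 window was a chain of short repeats with 9 copies of TAATCC, and no other of the 32851 windows of this length held as many. TAATCC was picked because it is repeated in this window, so its rarity elsewhere follows in part from that choice. At least 1 copy was present in 6.25% of all windows. Of the 48 measured genes of the 2-cell-like list, 29 had a window that was counted, 31 windows in all. Windows on chromosome 18, where the listed gene Fgf1 lies, were left out of this count but kept among all windows. TAATCC was present in 9 of those 31 windows, from 8 genes, with Zfp352 among them. TATAAA was also present in 9 of the 31, against 12.4% of all windows. The 9 with TATAAA belonged to Zscan4b, Zscan4c, Zscan4d, Zscan4f, Usp17lb, Usp17lc, Usp17ld, Obox3 and Gm13119. In Zscan4c and Zscan4d the place of TATAAA was read off. In Zscan4c it began 54 bases before the start, and in Zscan4d 65 bases. The windows of the 4 Zscan4 genes are copies of each other, 94.7% to 99.6% identical, and count as 1 sequence in effect. A match is a description and not a binding site.

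Lines 7 and 13 held more RNA of the 2-cell-like genes than lines 3 and 5, and their own levels lay close together. Between a line of one pair and a line of the other the median fold over the list, taken in either direction, was 1.69 to 2.14. In these comparisons line 7 or 13 was the higher in 42 to 46 of the 48 genes. Of 68 genes on the list, the table held 56, and 48 were measured. In 41 of the 48 both lines 7 and 13 lay above both lines 3 and 5, and in 0 they lay below. Over all measured genes that order was seen in 12.1%, and the opposite order in 18.7%. These shares describe the choice of the lines and support nothing. Summed RPKM of the 48 genes came to 187 in line 3, 233 in line 5, 339.6 in line 7 and 365 in line 13. ESC had 60.7 and MEF 43.0, most of the latter from Rxra, Fbxo34 and Ddit4l, which many cells express. The order held under every scaling tried, with 41 of 48 in each.

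**Figure D1:**
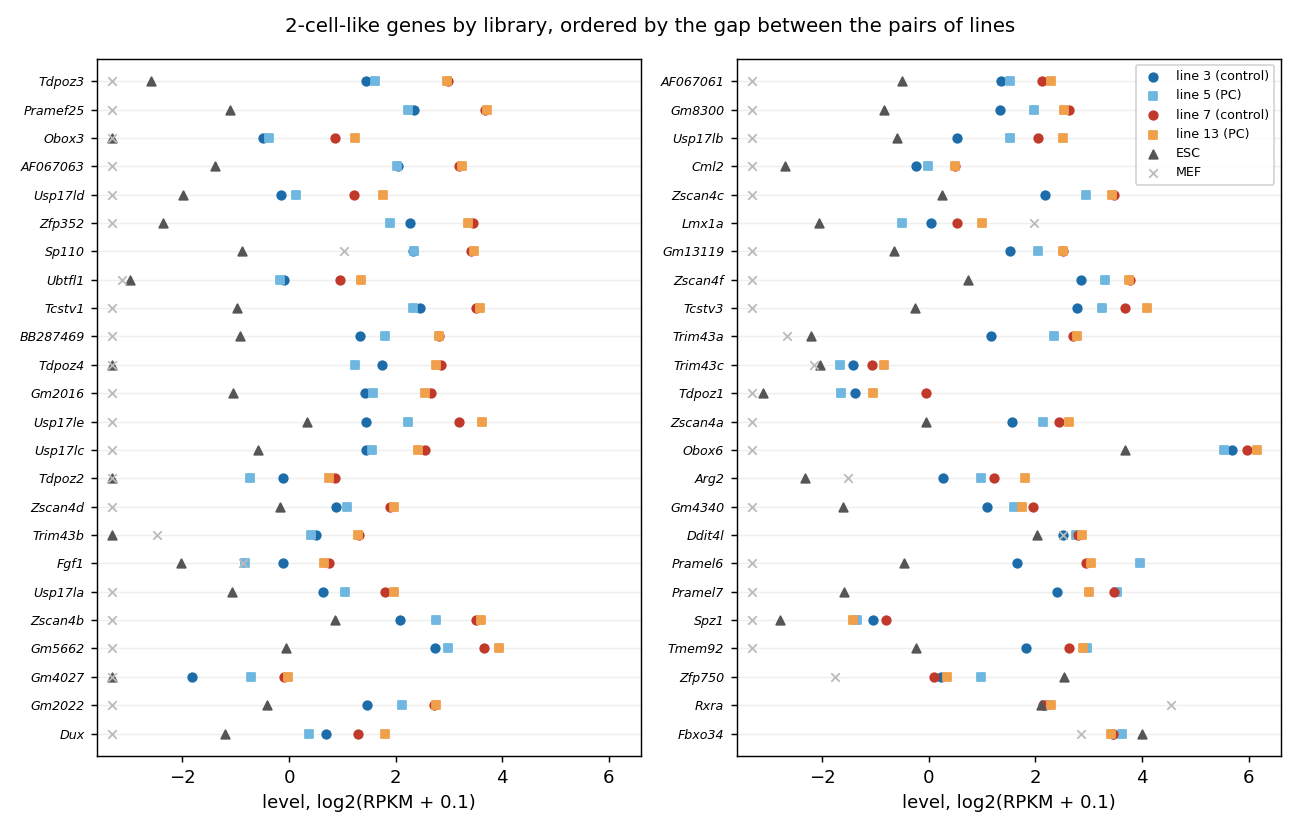
Level of the 48 measured 2-cell-like genes, as log2(RPKM + 0.1), in the 4 iPSC lines, ESC and MEF, with genes ordered by the gap between the nearest lines of the pairs. Lines 7 and 13 lie to the right of lines 3 and 5 in 41 of 48 genes, and ESC lies left of all 4 lines in 46.

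Zfp352, a zinc finger gene used as a reporter of the 2-cell-like state (chromosome 4, 90218820 to 90225687), stood at 4.74 in line 3, 3.61 in line 5, 10.8 in line 7 and 10.1 in line 13. ESC held 0.095, from 6 reads, and MEF had no read. The groups of lines did not overlap, and the log2 gap between the nearest lines was 1.08. Here and below the gap is the log2 ratio of the nearest lines of the pairs after adding 0.1 to each RPKM, which makes it smaller for weakly expressed genes. Zfp352 was higher in the 4 lines than in ESC by 6.20 on the log2 scale (SE 1.09, edgeR quasi-likelihood test, adjusted p = 0.0232). ESC took no part in choosing the lines, but high levels of 2-cell-like genes in lines 7 and 13 did. The differences and p-values against ESC of this gene and of other 2-cell-like genes below are thus a description only.

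Tdpoz4, which codes for a protein with TRAF and POZ domains (chromosome 3, 93796398 to 93797510), was at 3.25 in line 3, 2.27 in line 5, 7.15 in line 7 and 6.68 in line 13. No read fell on it in ESC or MEF. Its level in the iPSC lines was at least 50.2-fold higher than the 3 reads that a count of 0 allows in ESC (edgeR adjusted p = 0.0256). Zscan4c, a zinc finger gene tied to telomere upkeep (chromosome 7, 11005745 to 11010547), was at 4.42, 7.62, 10.97 and 10.7 in lines 3, 5, 7 and 13, and at 1.09 in ESC. Line 5 lay between line 3 and the higher pair, with a gap of 0.49. The log2 difference between iPSC and ESC was 2.91 (SE 0.61, edgeR adjusted p = 0.0331).

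Sums of reads over the chosen near-identical copies, as CPM (counts scaled to library size), showed which of these sums separated the pairs most. The 4 Tdpoz copies (chromosome 3, 93651542 to 93827117) came to 8.08 in line 3, 6.85 in line 5, 20.5 in line 7 and 18.6 in line 13, with 0.107 in ESC. Here the nearest lines of the pairs were 2.30-fold apart, and the lines of each pair close. The 5 Usp17l copies, genes for ubiquitin proteases (chromosome 7, 103250086 to 104862667), came to 16.5, 24.3, 45.3 and 55.3, with 5.19 in ESC, 1.86-fold apart. The 4 Tcstv copies (chromosome 13, 119827961 to 120318261) came to 16.4, 18.5, 32.7 and 38.0, with 1.79 in ESC, 1.77-fold apart. The 6 chosen copies of genes like the translation factor Eif1a (chromosome 12, 87514316 to 88274497) came to 30.6, 41.0, 70.9 and 74.7, with 5.08 in ESC, 1.73-fold apart. Gm16381 lies in that span but was not in the sum. It had 33, 30, 69 and 215 reads in lines 3, 5, 7 and 13. None of these 4 families had a read in MEF.

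The 5 Zscan4 copies (chromosome 7, 10794241 to 11402318) came to 40.4 in line 3, 60.7 in line 5, 89.1 in line 7 and 91.6 in line 13. ESC held 11.9 and MEF no read. The nearest lines were 1.47-fold apart, and line 5 lay about midway between line 3 and the higher pair on a log scale. The 3 Trim43 copies, of a ubiquitin ligase family (chromosome 9, 88580891 to 89092835), showed a like order at 7.46, 12.4, 18.0 and 18.7. Summed Obox homeobox genes differed by 1.25-fold at the nearest, at 69.9, 63.5, 87.3 and 99.1, and most of that sum was Obox6. Obox3 alone, a gene of the cleavage-stage embryo, was at 0.610, 0.675, 1.72 and 2.25 with no read in ESC. The nearest lines were 1.05-fold apart in the sum over 4 chosen Prame genes, at 30.5, 63.0, 70.2 and 66.0. This sum does not cover the whole family, and BC080695, described below, was not in it. Among the genes summed, Pramef25 (4.96, 4.61, 12.6 and 12.97) followed the pairs. Pramel6 was highest in line 5 at 15.4, against 3.06 in line 3, 7.59 in line 7 and 8.15 in line 13.

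The 7 genes whose lines overlapped were Pramel6, Pramel7, Tmem92, Spz1, Zfp750, Rxra and Fbxo34. Tmem92, a membrane protein gene on chromosome 11, was at 3.44 in line 3 and 7.79, 6.14 and 7.36 in lines 5, 7 and 13. Rxra, a nuclear receptor, and Fbxo34 are expressed widely, and their levels lay within 4.30 to 4.78 and 10.7 to 12.2 in the 4 lines. Line 3 was the lowest line for 30 of the 48 genes and line 5 for 14. Line 13 was the highest for 27 and line 7 for 16.

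Within the list, lines 7 and 13 differed little from each other. Their median absolute log2 difference over the 48 genes was 0.112, close to the 0.122 over all measured genes. Lines 3 and 5 differed by 0.397, against 0.271 over all genes. Across the pairs the medians ran from 0.76, between lines 5 and 7, to 1.09, between lines 3 and 13. A 2-fold difference or more was present in 1 of the 48 genes between lines 7 and 13, in 6 between 3 and 5 and in 29 between 3 and 13. The closeness of lines 7 and 13 was thus seen across the labels, between 1 control and 1 PC line.

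The comparison the labels define crosses the pairs, so each labelled group held 1 line of each pair. It uses the same 4 libraries as the choice of the pairs and is not independent of it. Between PC iPSC (5 and 13) and control iPSC (3 and 7), edgeR called 0 of 16435 genes, 0% of those tested, with 385 at an unadjusted p under 0.05. DESeq2 also called 0, with 249 at that level. Without control line 7, edgeR called 309 genes, 285 of them higher in PC iPSC. For the 48 genes the log2 differences ran from -0.95 to 1.11. Nothing is read from their lack of calls, since a high and a low line in each labelled group widens the spread within it. Zfp352 differed by -0.19 (SE 0.55) and Zscan4c by 0.23 (SE 0.42).

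All 4 lines, not the higher pair alone, held more 2-cell-like RNA than the ESC library. Lines 3 and 5 were also both above ESC in 46 of 48 genes. The 48 had passed a filter on reads in the iPSC lines alone, so listed genes seen mainly in ESC could not enter. That favours the lines, and the counts against ESC in this paragraph are a description. The 4 lines together against ESC gave 29 of the 48 genes called higher and 1 lower by edgeR at an adjusted p under 0.05. Of all genes tested, 4.71% were called higher and 5.71% lower. The gene called lower was Zfp750, an epidermal factor, at 0.974 to 1.86 in the lines and 5.73 in ESC. Without 1 line the number called higher ran from 25, without line 13, to 42, without line 3. Of the 29 called higher, 26 were among the 41 that separated the pairs. The median log2 difference over the list was 3.35, or 3.15 with the 5 genes that had no read in ESC set at their lower bound. ESC is 1 library, assumed here to vary like the lines, and 36 of the 48 genes had no read in MEF.

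Among genes known to start or hold back the 2-cell-like state, Dux separated the pairs, while the regulators around it had gaps between -0.15 and 0.14. Dux, the homeobox factor that starts the program, stood at 1.52 in line 3, 1.19 in line 5, 2.37 in line 7 and 3.40 in line 13, with 0.336 in ESC and no read in MEF. Its lines did not overlap, and the gap was 0.61. Against ESC it was not called (log2 difference 2.61, SE 0.78, edgeR adjusted p = 0.080), though it was by DESeq2 and in edgeR without line 3, 5 or 7. Dppa2, a chromatin factor needed for Dux activity (chromosome 16, 48310274 to 48319513), was at 21.8, 26.6, 28.6 and 35.3, and its partner Dppa4 at 57.6, 56.7, 62.4 and 75.4. In both, line 13 stood highest and line 7 only just above the lower pair, with gaps of 0.11 and 0.12. Nelfa, a subunit of the complex that pauses RNA polymerase, was at 41.5, 44.6, 49.1 and 50.4.

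Of the 34 genes in the list of regulators, 5 lay higher in both lines 7 and 13, 4 lower and 25 overlapped. That is 14.7% higher and 11.8% lower, near the 12.1% and 18.7% of all measured genes, so the members below are given as values only. Besides Dppa2, Dppa4 and Nelfa, the higher ones were the polycomb ligase gene Rnf2 and the corepressor gene Rcor1, with gaps of 0.08 and 0.04. Lower were Trp53, Smchd1, the chromatin assembly gene Chaf1b and the histone methyltransferase gene Ehmt1. Trp53, which codes for p53, stood at 139.5 in line 3, 169.6 in line 5, 119 in line 7 and 126 in line 13. It lies on chromosome 11, described below. The Ehmt1 order (19.5, 17.4, 16.1 and 17.3) was lost under other scalings. Repressors such as Trim28, Kdm1a and Chaf1a overlapped. Against ESC, 2 of the 34 were called higher, Rif1 and Zfp57, and 0 lower. Over all genes tested against ESC the shares were 4.71% higher and 5.71% lower, so these calls too are given as values only.

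Across all measured genes the pairs were told apart by few large differences. Both lines 7 and 13 lay at least 2-fold above both others in 21 genes, 0.144% of those measured, and at least 2-fold below in 6, or 0.0412%. At 1.5-fold the counts were 78 and 53, or 0.536% and 0.364%. Each counted gene had at least 20 reads in both lines of its higher pair. Of the 21 genes, 11 were on the 2-cell-like list, and 4 others had coded names, Gm4567, Gm4858, Gm16381 and 4930486L24Rik. Gm4567 had the largest gap of these, at 2.54 in line 3, 2.10 in line 5, 7.81 in line 7 and 11.27 in line 13. Tdpoz4 was just inside the 2-fold limit with a gap of 1.02, and Gm2016, an Eif1a-like copy, just outside at 0.98. On the lower side Slc25a35 was just inside at -1.003 and Rhox9 just outside at -0.97.

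**Figure D2:**
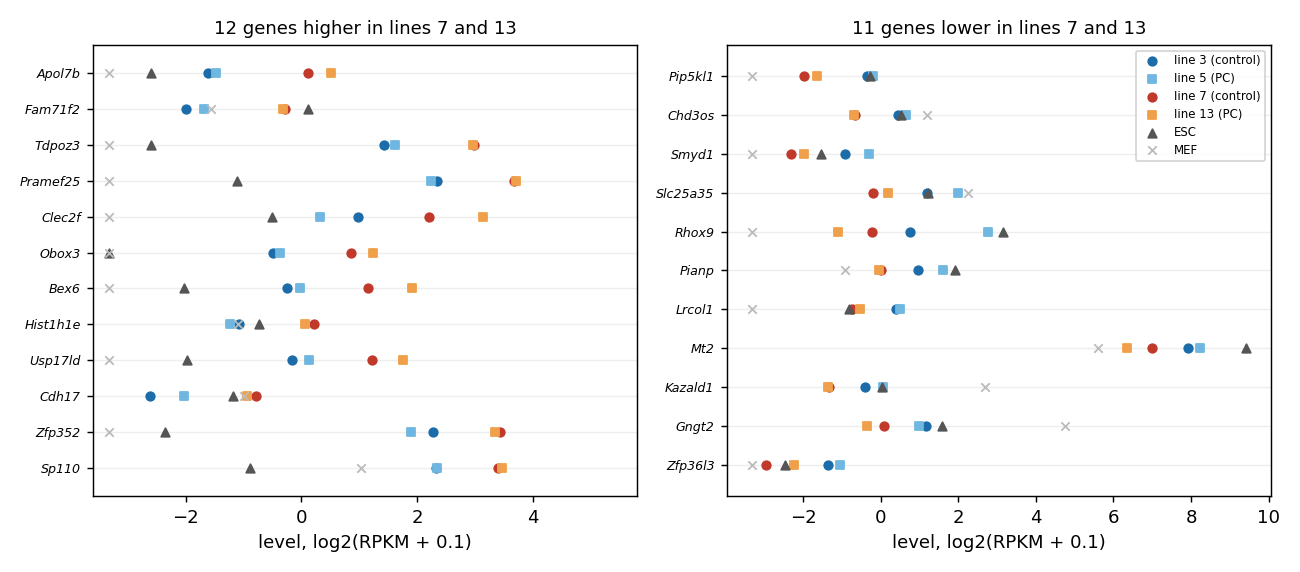
Level of the 12 named genes of largest upward gap and of 11 of the 12 of largest downward gap, as log2(RPKM + 0.1), in the 4 iPSC lines, ESC and MEF. Most higher genes lie at or left of 0 in ESC and at the left edge, with no read, in MEF, and Mt2 is the most abundant of the lower genes shown, at 81.0 to 300.2 in the lines.

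The 12 named genes with the largest gaps upward held 6 of the 2-cell-like list, Tdpoz3, Pramef25, Obox3, Usp17ld, Zfp352 and Sp110. Sp110, a nuclear body gene, stood at 4.91 in line 3, 4.97 in line 5, 10.5 in line 7 and 10.9 in line 13, with 0.441 in ESC and 1.95 in MEF. Of the other 6, Clec2f, a lectin-like receptor gene, was at 1.87, 1.15, 4.54 and 8.74, and Bex6 at 0.737, 0.881, 2.11 and 3.67. Both had no read in MEF. Apol7b, of the apolipoprotein L family, had the largest gap of all, 1.59, at 0.228, 0.259, 0.983 and 1.32 from 14 to 80 reads. Fam71f2, the cadherin gene Cdh17 and the linker histone gene Hist1h1e stood at 0.0625 to 0.370 in the lower pair and 0.424 to 1.06 in the higher. These 3 rested on 5 to 44 reads a line, so the size of their gaps is loose.

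Genes outside the list that were higher by 1.5-fold numbered 53. Of these, ESC lay below all 4 lines in 39, or 73.6%, against 39.6% of all measured genes, and 27 had no read in MEF, 50.9% against 5.52%. These shares were not matched for level. The list was not complete, so the 53 are not a set separate from the 2-cell-like arrays. Gm16381, one of the 53, lies within the span of the Eif1a-like copies, and BC080695 is of the Prame family. The 4 most abundant of the 53 genes were named after their values were seen, and their log2 differences from ESC come from edgeR. Because they were chosen on their levels in the lines, these differences and p-values are a description only. Gm20767 stood at 19.6 in line 3, 18.7 in line 5, 35.4 in line 7 and 31.1 in line 13, with 2.13 in ESC (3.58, SE 0.52, adjusted p = 0.0165). Gm8994 stood at 14.6, 17.5, 26.5 and 28.8, with 0.091 in ESC from 4 reads (7.82, SE 0.78, adjusted p = 0.00699). Gm7102 stood at 8.87, 10.4, 18.4 and 17.9, and Dcdc2c, a doublecortin domain gene, at 9.55, 9.38, 17.4 and 17.5, with ESC at 1.81 and 1.75. In each of the 4 the pairs were apart, as the choice requires, and the lines within a pair were close, as in the Tdpoz genes. BC080695, of the Prame family, showed the same order at 5.22, 6.21, 11.9 and 11.9.

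Among germ cell genes 4 of 29 were higher in both lines 7 and 13 and 5 lower, shares of 13.8% and 17.2% that were close to the 12.1% and 18.7% of all measured genes. Gtsf1, a factor of the piRNA pathway, stood at 5.29, 4.10, 6.83 and 7.02 against 0.532 in ESC. The Rhox homeobox genes of the X chromosome split. Rhox13 was higher, at 2.60, 2.53, 4.81 and 4.29, while Rhox6 (2.26, 8.84, 1.37 and 1.09) and Rhox9 (1.57, 6.67, 0.756 and 0.369) were lower and set mostly by line 5. Of 8 measured genes of the Y chromosome, 7 were higher in both lines 7 and 13. Zfy1, a zinc finger gene of that chromosome, was at 3.20 in line 3, 3.10 in line 5, 7.46 in line 7 and 5.66 in line 13, a gap of 0.80. Others were nearer, such as Eif2s3y, an initiation factor subunit gene, at 26.3, 18.6, 33.5 and 28.7, a gap of 0.12.

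Genes with lower RNA in lines 7 and 13 were of several kinds. Among the 53 that were lower by 1.5-fold, the most abundant were Mt2 and Ldhb. Mt2, a metal-binding metallothionein (chromosome 8, 94172618 to 94173567), stood at 242 in line 3, 300.2 in line 5, 127 in line 7 and 81.0 in line 13. ESC held 684, above all lines, and MEF 48.4. The gap was -0.93. Its neighbour Mt1, named after Mt2 was seen and short of 1.5-fold with a gap of -0.58, was at 162, 136, 91.2 and 77.9, with 409 in ESC. For Mt1 the difference between iPSC and ESC was -1.86 (SE 0.32, edgeR adjusted p = 0.0222). For Mt2 it was -1.92 (SE 0.55) and not called, at an adjusted p of 0.0736 in edgeR. Both genes were named for low levels in lines 7 and 13, which are part of this comparison, so these values are a description only. Mt2 was called in each of the 4 fits that left out 1 line.

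Ldhb, the heart form of lactate dehydrogenase (chromosome 6, 142490249 to 142507957), stood at 102 in line 3, 150.3 in line 5, 66.2 in line 7 and 46.5 in line 13, with 459.6 in ESC. The 4 lines were lower than ESC by a log2 difference of -2.39 (SE 0.47, edgeR adjusted p = 0.0296). Ldhb was named for its low level in lines 7 and 13, which are among these 4, so this difference is a description only. Lines 7 and 13 lay farthest from ESC, which follows from their being the lower pair. Aldoc, an aldolase, was at 7.18, 7.25, 5.06 and 5.21 against 32.3 in ESC, and the glucose transporter Slc2a1 at 65.5, 73.2, 57.5 and 48.2 against 182. Over the 25 glycolysis genes, however, 5 were higher in both lines and 7 lower, and the line medians all lay between 0.00 and 0.04. Of 32 genes for carnitine transport and fatty acid oxidation, 3 were higher and 10 lower. Over all measured genes 12.1% were higher and 18.7% lower. The carnitine transporter Slc22a5 was at 3.65, 8.06, 2.81 and 3.10.

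Genes of the trophoblast list were lower in both lines 7 and 13 for 9 of 18 members and higher for 1, against 18.7% lower and 12.1% higher over all measured genes. Tfap2c, a transcription factor of trophoblast and germ line, stood at 12.2 in line 3, 19.11 in line 5, 8.98 in line 7 and 8.75 in line 13, with 60.7 in ESC. Peg10, an imprinted gene derived from a retroelement, was at 7.98, 15.9, 5.33 and 4.25, with 21.1 in ESC. In both genes line 5 was highest and line 3 stood nearer to lines 7 and 13. Among epithelial genes 7 of 23 were lower and 0 higher, beside the same shares over all genes, such as the tight junction gene Cldn4 at 39.3, 46.5, 32.2 and 31.9 against 150.1 in ESC. Of the 12 named genes of largest downward gap, 10 were below 4 RPKM in every line, among them Pip5kl1 and the muscle methyltransferase gene Smyd1.

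Where ESC stood differed by direction. Of the 78 genes higher by 1.5-fold in lines 7 and 13, ESC was below all 4 lines in 64 and above all in 2. Of the 53 lower genes, ESC was above all 4 lines in 23, or 43.4%, against 29.1% of all measured genes, and below all in 8, or 15.1%. Over all measured genes, lines 7 and 13 were farther from ESC than lines 3 and 5. The distance, the root mean square difference of log2(RPKM + 0.5), was 0.613 for line 3, 0.608 for line 5, 0.677 for line 7 and 0.683 for line 13. With chromosome 11 and the 2-cell-like list left out, lines 7 and 13 were again the farther pair, at 0.594, 0.596, 0.651 and 0.654, while lines 3 and 5 changed places.

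Chromosome 11 supplied many of the lower genes. Of its 1226 measured genes, 38.2% were lower in both lines 7 and 13 and 3.26% higher. On other autosomes the share lower was 11.5% to 19.6% and the share higher 10.3% to 16.9%. The median gene of chromosome 11 stood 0.31 above the mean of the 4 lines in line 5, and at -0.09, -0.11 and -0.10 in lines 3, 7 and 13. Lines 7 and 13 were thus level with line 3 on this chromosome, and line 5 stood apart. Slc25a35, Chd3os and Gngt2, among the 12 leading lower genes, lie there. The part of line 5 in these 3 genes was not tested. Line 3 stood at 2.20, 1.26 and 2.15, above both lines 7 and 13 as the choice of these genes requires.

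**Figure D3:**
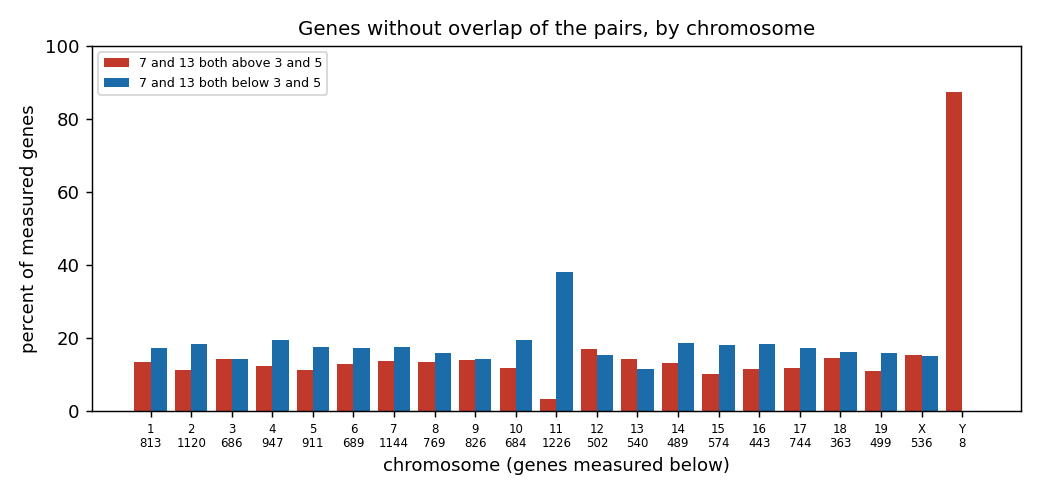
Share of measured genes on each chromosome, in percent, in which lines 7 and 13 both lay above (red) or both below (blue) lines 3 and 5, with the number of genes measured under each name. Chromosome 11 stands out among the autosomes with 38.2% below, and 7 of the 8 Y genes are above.

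Over all measured genes both lines 7 and 13 lay within the range of lines 3 and 5 in 4844, or 33.3%. They were both above in 12.1% and both below in 18.7%, and the rest were mixed. Of 23 gene lists, the medians of lines 7 and 13 were both above those of lines 3 and 5 in 3, both below in 6, both between in 12, and 1 of them outside in 2. The 3 lists above were the 2-cell-like genes, the ribosomal proteins and the small list of X-inactivation and Y genes. In the 2-cell-like list the medians of the log2 difference from the mean of the 4 lines were -0.54 in line 3, -0.28 in line 5, 0.35 in line 7 and 0.43 in line 13. For the ribosomal proteins they were -0.004, -0.13, 0.06 and 0.08. There 23 of 35 genes were higher in both lines, with small gaps, against 12.1% of all measured genes. After quantile normalization the number fell to 9.

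**Figure D4:**
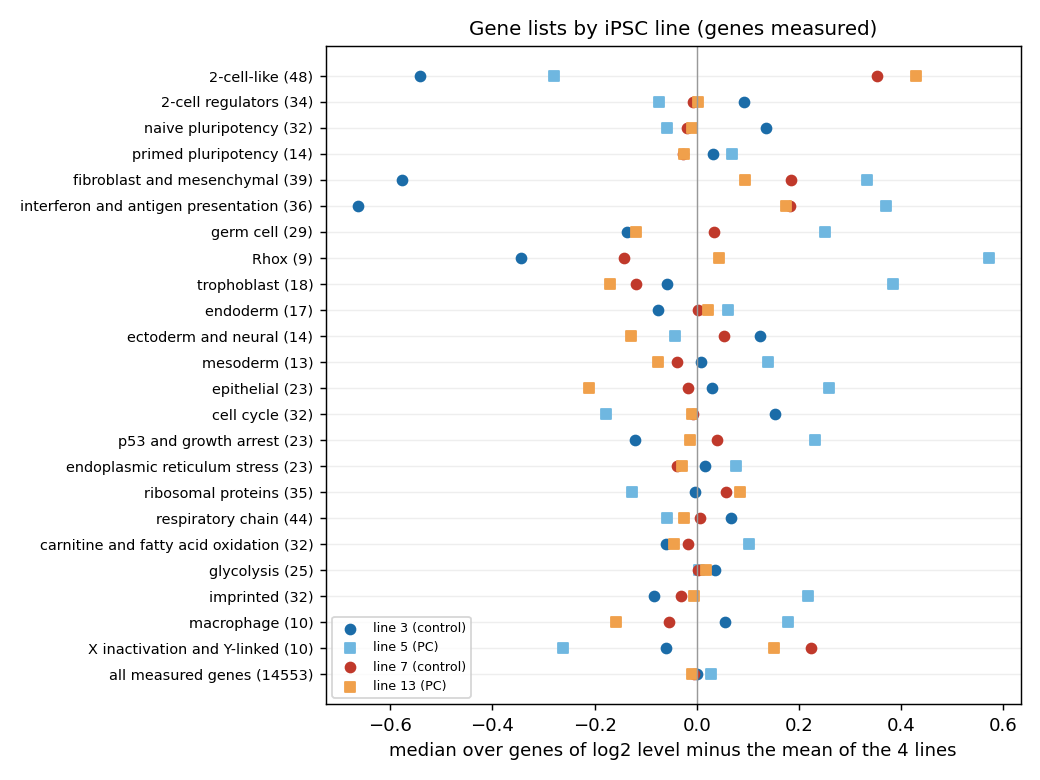
Median over the genes of each list of the log2 level minus the mean of the 4 lines, by iPSC line, with the number of genes measured in brackets. The 2-cell-like list has lines 7 and 13 at 0.35 and 0.43 and lines 3 and 5 at -0.54 and -0.28, while in the fibroblast and interferon lists lines 7 and 13 lie between lines 3 and 5.

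The largest spreads in other lists came from lines 3 and 5. In the list of 39 fibroblast genes, which feeder cells would carry, the medians were -0.58 in line 3, 0.33 in line 5, 0.18 in line 7 and 0.09 in line 13. Summed RPKM were 2779.7, 5616, 5233 and 4709.9, with 2463 in ESC and 18054 in MEF, and both lines 7 and 13 lay between lines 3 and 5 in 25 of the 39 genes. Col1a1, the main collagen of fibroblasts, was at 258, 635, 559 and 516. None of the 39 was lower in both lines 7 and 13, and 2 were higher. After quantile normalization 1 was lower and 4 were higher. The part of feeder RNA in the difference between the pairs was not tested. In the MEF library, which went against its label in part, 36 of the 48 2-cell-like genes had no read. The 36 interferon and antigen presentation genes had the same order of lines, with medians of -0.66, 0.37, 0.18 and 0.18, and 9 higher in both lines, 25.0% against 12.1% of all measured genes, such as Ifit3 at 11.5, 60.4, 65.4 and 74.5. The naive pluripotency list had 1 of 32 genes higher and 7 lower. The share lower, 21.9%, was near the 18.7% of all measured genes. Klf5, one of the 7, was at 34.4, 34.6, 28.4 and 23.4.

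The distance between lines 7 and 13 was 0.216, the smallest of the 6 pairs and part of the reason they were chosen. Lines 3 and 5 were the farthest apart at 0.430, and the 4 distances across the pairs ran from 0.319 to 0.362. Lines 3 and 5 thus formed no pair of their own. Genes that differed 2-fold or more numbered 186 between lines 7 and 13 and 1003 between lines 3 and 5, counting genes with 20 reads in either line. Across the pairs the counts ran from 445, between 5 and 7, to 639, between 5 and 13. Lines 7 and 13 stayed the closest pair under all 8 other settings run, and without the 2-cell-like list their distance was again 0.216.

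**Figure D5:**
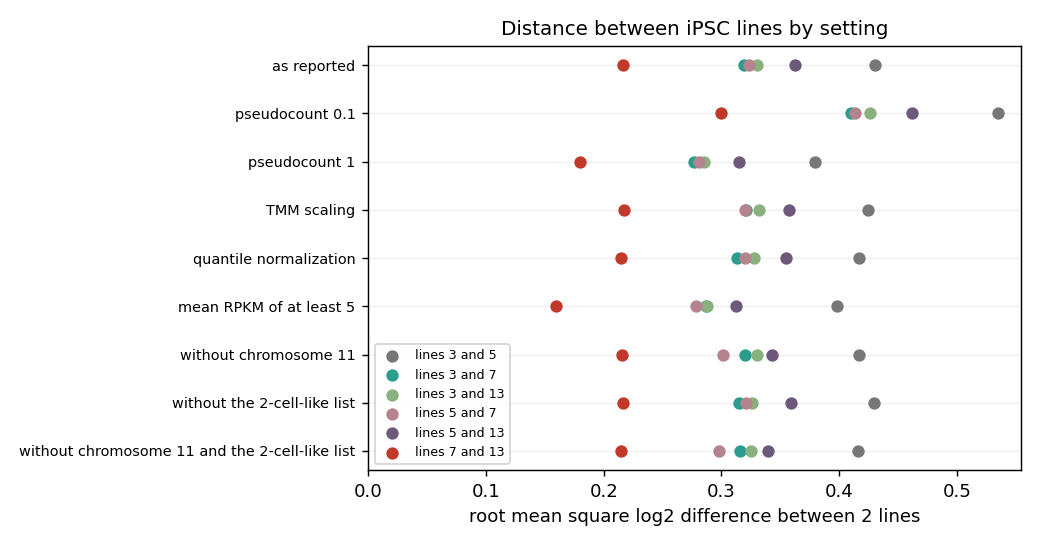
Root mean square log2 difference between each of the 6 pairs of iPSC lines over measured genes, under the reported setting and the alternatives. Lines 7 and 13 are the closest pair under every setting, at 0.216 as reported, and lines 3 and 5 the farthest, at 0.430.

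Some genes did part lines 7 and 13, and these were named after their values were seen. Lefty2, an inhibitor of Nodal signaling, stood at 15.8 in line 7 and 73.7 in line 13, with 28.0 in line 3, 11.5 in line 5 and 56.4 in ESC. Ano1, a chloride channel gene, was at 0.392 in line 7 and 2.10 in line 13, and 62.3 in MEF. Krt17, a keratin gene, was at 1.35 in line 7 and 0.120 in line 13, with 7.62 in ESC. Myc, which is also a reprogramming factor, was at 37.2 and 57.4, with 33.1 and 24.2 in lines 3 and 5. These differences rest on 1 library against 1 and have no replicate check.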

How the data were processed

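RNA of 4 iPSC lines, 1 ESC and 1 MEF library was analysed from the authors' table of the whole series. Per the file headers it gives, for each gene, the count of reads assigned uniquely, RPKM, gene length and the share of each gene covered (not used here). The submitters' processing notes name CASAVA 1.8.2 and mouse build mm10, with no role given. The sources used here do not name the aligner, counter or annotation, or say whether strand was used, so reads of overlapping antisense genes such as Chd3os cannot be assigned with certainty. The deposited RPKM were recomputed from count, length and library total within a relative difference of 2.4e-14, except for 93 genes whose length differed between libraries. Genes were placed by gene ID in RefSeq (GRCm38.p6), 19238 of 19330. Even numbers made up 62.39% to 67.5% of counts from 1 to 20, so low counts may hold fewer fragments than their size.

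Members and gene lists were chosen with earlier results of these data known. Pairs of lines were described by gaps of log2(RPKM + 0.1), by counts of genes without overlap and by root mean square differences of log2(RPKM + 0.5). The named genes were the 12 of largest gap in each direction with at least 20 reads in each line of the higher pair (coded names passed over), all measured members of the 2-cell-like and regulator lists, and up to 4 members of every other list, those without overlap first. The labelled groups were tested on the counts with the quasi-likelihood test of edgeR 4.0.16 (R 4.3.3), TMM scaling and the default filter, as 4 group means over 6 libraries (2 residual degrees of freedom, 16435 genes), with Benjamini-Hochberg adjustment and a threshold of 0.05. The single ESC and MEF libraries were assumed to vary like the lines. Alternatives were DESeq2 1.42.0, other filters, pseudocounts and scalings, and leaving out each line. A count of 0 allows 3 reads, 0.107 to 0.113 CPM, for counting error only. Some genes the rule names are not reported here. The test was tried on simulated counts. Motif matches were sought in 250-base windows, aligned with Biopython.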

Additional observations from a re-analysis of the deposited data

How the results depend on the processing

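No paired analysis was possible because control lines are numbered 3 and 7 and PC lines 5 and 13, so no number is shared. The count of 0 genes between PC and control iPSC held in every fit but that without control iPSC 7, where 309 were called, so the range without 1 line was 0 to 309. Line 3 was then the only control line, assumed to vary like the other groups. For iPSC against ESC, 1713 genes were called with all lines and 1781 to 2873 without 1 line, 2873 without control iPSC 3, 2734 without control iPSC 7 and 2566 without PC iPSC 5. Of the 48 2-cell-like genes, 29 were called higher with all lines and 25 to 42 without 1 line. Usp17lc and Obox3 lost their call without PC iPSC 13. For iPSC against ESC DESeq2 called 2384 genes, of which 1315 were higher, against 774 higher of 1713 in edgeR. The count of genes at least 2-fold higher in lines 7 and 13, 21, was 8 with a pseudocount of 0.5, 78 at 1.5-fold and 41 to 271 without 1 line, the last without PC iPSC 5. The count at least 2-fold lower, 6, was 11 with a minimum of 10 reads and 2 with 50, 18 with a pseudocount of 0.01 and 0 with 0.5, 10 after quantile normalization, 53 at 1.5-fold, and 24 to 190 without 1 line, the last without control iPSC 3. With 3 lines fewer values must agree, so counts without 1 line are larger by construction. The distance between lines 7 and 13 was 0.300 with a pseudocount of 0.1, against 0.216. Of the 2-cell-like genes 41 to 44 were higher in the remaining lines of 7 and 13 without 1 line, and 0 to 5 lower. The gap between the list's medians was 0.63, and 0.60 to 0.94 without 1 line. Of 145 named genes without overlap, 5 overlapped under another scaling, among them Ehmt1, Otx2, Map2 and Eomes. The setting that left out chromosome 11 together with the 2-cell-like list was chosen after seeing the data. For other changed values the cause was not tested. Genes under about 1 RPKM rest on few reads, which limits the size of their gaps.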

Other observations

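Some gene lists not described above follow, to be read against the 12.1% of all measured genes that were higher in both lines 7 and 13 and the 18.7% that were lower in both. Of 32 measured imprinted genes, 2 were higher and 8 lower, a share close to that over all genes. Plagl1, a zinc finger gene read from the paternal copy (chromosome 10), stood at an RPKM of 13.4 in lines 3 and 5, 9.34 in line 7 and 8.81 in line 13, with 4.38 in ESC. Dio3, the thyroid hormone deiodinase of the imprinted region on chromosome 12, went the other way, at 4.29 in line 3, 2.93 in line 5 and 5.84 in line 7, just under line 13, with 0.535 in ESC. Of 23 genes of endoplasmic reticulum stress, 1 was higher and 7 lower, among them Trib3, a pseudokinase induced by stress, at 23.4, 29.4, 21.1 and 16.1 in lines 3, 5, 7 and 13. With TMM scaling 2 were higher and 4 lower. Of 44 respiratory chain genes, 3 were higher and 10 lower, such as Atp5g1, an ATP synthase subunit gene on chromosome 11, at 211, 232, 181 and 171 in the same order. The number lower was 5 with TMM scaling and 13 after quantile normalization.

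Of 10 macrophage genes, 1 was higher and 4 lower. Ctss, a cathepsin of phagocytes, was at 1.33 in both lines 3 and 5, 0.721 in line 7 and 0.623 in line 13, with 39.8 in MEF. Some lower genes of known role were named after their values were seen. Calca, which codes for calcitonin, stood at 3.12, 3.38, 1.66 and 1.09 in lines 3, 5, 7 and 13, with 16.1 in ESC. Gad1, an enzyme that makes the transmitter GABA, was at 0.751, 0.770, 0.374 and 0.365, with 2.06 in ESC. Gli1, a target of Hedgehog signaling, was at 0.544, 0.828, 0.227 and 0.312, with 12.3 in ESC. In these 3 genes ESC lay above all 4 lines, so lines 7 and 13, the lower pair by choice, lay farthest from it. Among the 53 genes lower by 1.5-fold, ESC lay above all 4 lines in 23.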
